A study of Mus musculus with 40 samples.

Results

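The 8 transcription factor genes followed here, known for their part in hepatocyte identity, were examined through DNA methylation in mouse liver: the nuclear receptor gene Hnf4a, the forkhead genes Foxa1, Foxa2 and Foxa3, the basic leucine zipper genes Cebpa and Cebpb, the cut-homeobox gene Onecut1 and the homeobox gene Prox1. The members were the CpG cytosines listed within these 8 genes and 5 kb on either side, by the GENCODE annotation of mouse build mm9. The table listed 397 such cytosines of 400298 in all. Of the 397, 290 were covered by 10 or more reads in 36 or more of the 40 mice and were tested, among 262317 tested in all. They came from Foxa1 (69), Cebpa (48), Cebpb (39), Foxa2 (37), Onecut1 (36), Foxa3 (29), Prox1 (23) and Hnf4a (9).

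The animals were 40 males of 9 weeks of age, labelled C57BL/6 and given as C57BL/6J in the study's methods, and DNA was taken from the whole liver. Their dams were fed a low fat diet (LF) or a high fat diet (HF) from before mating until weaning, and the offspring received LF or HF from then on, which gave 4 groups of 10: LF_LF, LF_HF, HF_LF and HF_HF, each named by the diet of the dams and then by the post-weaning diet. No group carried an engineered allele or received a drug. Males of one breeding cage were divided between both post-weaning diets and the labels do not name the dams, so mice that share a dam cannot be told apart from unrelated ones, and p-values treat every mouse as independent. Methylation was measured by reduced representation bisulfite sequencing (RRBS), in which DNA is cut by MspI at CCGG and bisulfite converts unmethylated cytosines. Only CpGs near the ends of MspI fragments are read, so each gene is seen as short stretches with unread DNA between them. The table listed 0.771% of the CpG cytosines of the Hnf4a window and 9.66% of those of the Cebpa window, the lowest and highest share among the 8 genes.

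In the liver these factors bind one another's genes and keep hepatocyte programmes on. Forkhead A proteins can open closed chromatin, HNF4A drives a large share of hepatocyte genes, C/EBP proteins control metabolic and acute phase genes, and ONECUT1 and PROX1 act in the growth and specification of liver cells. Promoters of developmental transcription factors often lie in CpG islands, which are usually free of methylation, while most CpGs elsewhere are methylated. Bulk liver mixes hepatocytes with other cells, so a partial methylation level can be a share of cells or of alleles, which cannot be told apart here.

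The sum of reads over all CpGs ranged from 2969907 to 23345592 per mouse. The member CpGs had a median of 14 to 38.5 reads, and 650 of 11600 values (5.60%) were missing. At the minimum of 10 reads a value moves in steps of 10 percentage points, and intervals over mice do not correct for reads copied from one molecule. The mouse with the fewest reads, in HF_HF, lacked 52.1% of all CpGs listed. The labelled tissue could be checked only in part, by promoters taken as 1000 bp before to 500 bp after a start. The promoters of the 8 hepatocyte markers on the marker list (Alb, Apoa1, Apoa2, Ttr, Tat, Cps1, Serpina1a and Cyp2e1) held 0 tested CpGs. Among markers of other liver cells, the leukocyte gene Laptm5 had a promoter mean of 77.0% over 2 CpGs, the endothelial gene Kdr 1.98% over 5, and the bile duct genes Krt7 and Sox9 20.2% over 13 and 7.90% over 16. These levels do not measure how many such cells were present, and their part in the results was not tested.

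Most CpGs of the 8 genes were unmethylated. Of the 290, 247 (85.2%) had a mean below 20% over the mice, 27 (9.31%) lay from 20% to below 50%, and 16 (5.52%) were at 50% or more. Over all CpGs tested within 5 kb of protein-coding genes the shares were 65.5%, 4.51% and 29.99%. The genes differed widely from one another. Foxa2 had 37 of 37 CpGs below 20%, Foxa1 66 of 69, Cebpb 37 of 39, Cebpa 43 of 48 and Onecut1 30 of 36. Prox1 had 16 of 23 and Foxa3 18 of 29, while Hnf4a had 0 of 9.

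**Figure D1:**
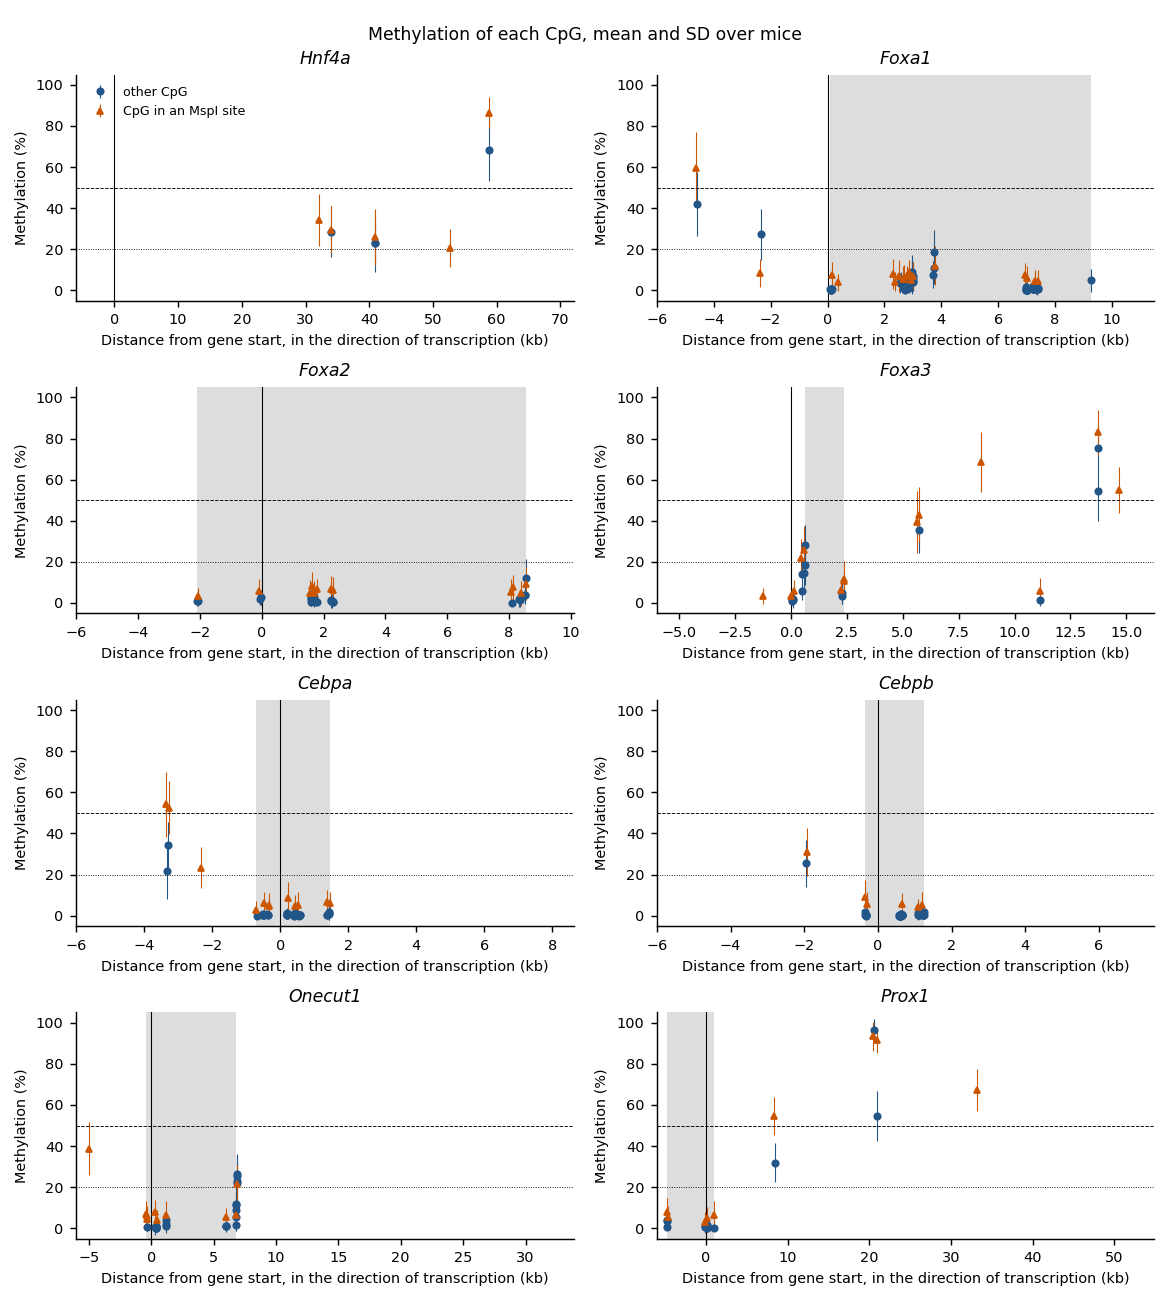
Methylation (%, mean with SD over mice as bars) of each tested CpG against its distance in kb from the gene start, one panel per gene. Triangles are CpGs in MspI sites and circles other CpGs, grey bands mark the longest run of CpGs below 20% near a start, and the horizontal lines mark 20% and 50%. The Hnf4a panel has no band, and the Foxa2 panel has no CpG above 20%.

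The extent of unmethylated DNA was taken as the longest run of neighbouring tested CpGs with means below 20% that had a CpG within 1000 bp of an annotated transcription start. Such a run was found at 7 of the 8 genes (87.5%), close to the 89.8% of all protein-coding genes with a tested CpG near a start. It spanned 10636 bp at Foxa2 (37 CpGs), 9175 bp at Foxa1 (65 CpGs), 7238 bp at Onecut1 (30 CpGs), 5796 bp at Prox1 (16 CpGs), 2167 bp at Cebpa (43 CpGs), 1728 bp at Foxa3 (6 CpGs) and 1616 bp at Cebpb (37 CpGs). The 4 longest runs crossed gaps of 3191 to 5737 bp without a tested CpG, so their inner methylation is known only at their tested stretches. Spans also moved with the limit and with the CpGs used, at Cebpa and Foxa3 among others, as given in the last section. Across protein-coding genes, 10461 of 11651 had a run, with a median of 1202 bp and quartiles of 204 and 27389 bp, a spread that such gaps also widen. Longer runs than that of Foxa2 occurred at 3772 genes (36.1%), than that of Foxa1 at 3890 (37.2%) and than that of Cebpb, the shortest of the 7, at 4903 (46.9%).

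Runs were therefore also broken at every gap of over 2000 bp, a setting chosen after the data were seen. Foxa2 then kept 4402 bp (26 CpGs), Foxa1 3662 bp (36), Cebpa 2167 bp (43), Foxa3 1728 bp (6), Onecut1 1619 bp (20), Cebpb 1616 bp (37) and Prox1 1115 bp (11). The median of these 7 was 1728 bp, against 275 bp (quartiles 50 and 734 bp) over the 10461 genes. That median is the Foxa3 run, of which 1629 bp is a gap without a tested CpG. By this setting, runs longer than that of Foxa2 occurred at 42 genes (0.401%) and longer than that of Foxa1 at 76 (0.727%), far fewer than without the break at gaps. For Prox1 the number was 1460 (14.0%). The runs of all genes held a median of 10 CpGs, fewer than those of 6 of the 7 members, and a longer run needs more tested CpGs, so the spans are given as a description.

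**Figure D2:**
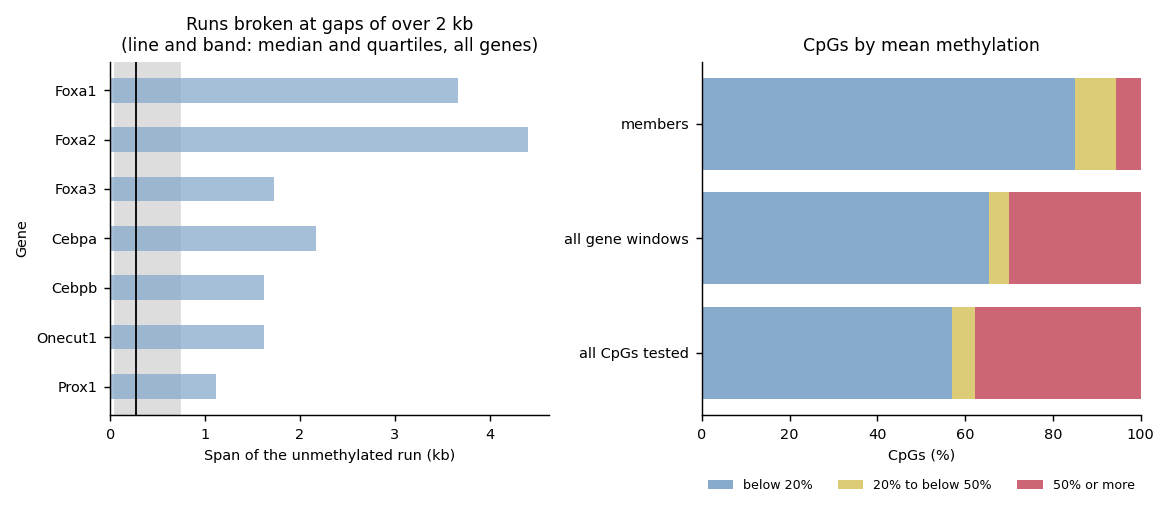
Left, span in kb of the unmethylated run of each gene when runs are broken at gaps of over 2 kb, with the median (line, 275 bp) and quartiles (band) of all protein-coding genes. Right, percent of CpGs by mean methylation in the 8 genes (290 CpGs), in windows of all protein-coding genes and over all CpGs tested; the share below 20% is 85.2%, 65.5% and 57.1%.

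Hnf4a, which encodes a nuclear receptor central to hepatocyte gene expression, was the exception among the 8. It lies on the plus strand at chr2:163332544-163398646, and its 7 annotated starts include a distal pair at 163332544 and 163332674 and the start at 163372923 that adult liver mainly uses. None of its 9 tested CpGs was below 20%, and all were intronic. The distal pair had 0 tested CpGs within 1000 bp, and the start at 163372923 had 3, with a mean of 24.0%. The 250 bases before that start hold 4 CpGs and 0 MspI sites. In the wider promoter windows used for the marker genes, 1 CpG of Hnf4a was tested, at 23.0%. The 250 bases are shown because no CpG in this part of the promoter was tested. Capitals mark its CpGs (mm9, chr2:163372673-163372922, plus strand):
Hnf4a promoter: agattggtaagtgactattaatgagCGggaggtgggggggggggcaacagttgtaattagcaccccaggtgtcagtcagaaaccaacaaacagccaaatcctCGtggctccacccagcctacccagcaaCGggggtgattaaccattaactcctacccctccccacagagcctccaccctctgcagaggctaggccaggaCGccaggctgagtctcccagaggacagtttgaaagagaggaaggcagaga

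Among 12 RefSeq promoter windows of the 8 genes (build GRCm38.p6, 250 bases before to 50 after a start), both Hnf4a windows had 4 CpGs. The median was 22.5 over the 12 windows and 7 over all 32851 promoters. The motif CCGG, which is its own reverse complement, was in 9 of the 12 and in 52.8% of all.

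The nearest tested CpGs of Hnf4a lie in the intron just past the start at 163372923. Their stretch is shown with the measured CpGs in capitals (mm9, chr2:163373397-163373462, plus strand):
Hnf4a intron: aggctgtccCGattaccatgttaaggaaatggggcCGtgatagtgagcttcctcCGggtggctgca

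These 3 CpGs had means of 23.0%, 23.1% and 25.9% over 37 mice, with SDs of 13.9, 11.4 and 13.8 percentage points, and single mice ranged from 0% to 66.7%. The pair at 163366536 and 163366543 stood at 29.5% and 28.5%, the CpG at 163364625 at 34.4%, and that at 163385184 at 20.6%. Those at 163364625, 163366536 and 163366543 also lie within the non-coding gene 0610008F07Rik. Towards the end of the gene the levels were higher, at 86.4% (163391302) and 68.5% (163391349). A partial level was thus seen at 7 of the 9 CpGs, and no stretch tested in this gene was below 20%.

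Foxa1, Foxa2 and Foxa3 encode forkhead proteins with nearly the same DNA-binding domain, but their methylation differed. Foxa2 (minus strand, chr2:147868613-147872705) was low at every tested stretch from 2080 bp upstream of its start to 8555 bp downstream of it. Its CpGs ranged from 0.213% to 12.2%, the highest lying 8541 bp past the start, in DNA that also belongs to the non-coding gene 9030622O22Rik. No tested CpG in its window was at 20% or more. The next higher CpGs lay outside it, at 147855463 (24.1%) and 147855425 (51.3%) on the downstream side, 8687 and 8725 bp from the last low CpG. They were higher than it in 32 of 36 and 37 of 37 mice. On the upstream side the next was at 147894390 (90.0%), 19605 bp away and higher in 37 of 37 mice.

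Foxa1 (minus strand, chr12:58641618-58647108) was low from just inside its start, through its body and past its end. The downstream edge was the sharpest rise to at least 50% among the 8 genes. The CpG at 58637832 had a mean of 4.81% and that at 58636453, 1379 bp further, 55.9%. The second was higher in 33 of 33 mice with both values, and their ranges, 0% to 18.8% and 29.4% to 81.2%, did not overlap. Upstream, the level went from 0.463% at 58647006 to 27.2% at 58649441 and 59.3% at 58651716, over 4710 bp, but the CpG at 58649489 between them had 8.40%.

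Within the Foxa1 run the coding sequence stood above its surroundings. Outside MspI sites, the 12 coding CpGs had a mean of 7.30% (1.32% to 18.5%), against 0.343% for 7 CpGs of the 5′ untranslated region and 0.965% for 24 CpGs downstream of the gene. The 5 intron CpGs next to the coding sequence lay between, at 3.21% (0.246% to 4.41%). The coding mean was higher than the untranslated one in 36 of 36 mice, higher than the intron one in 34 of 40 and higher than the downstream one in 40 of 40. It was 6.60% ± 3.15 (SD, n = 10) in LF_LF, 7.19% ± 1.83 (SD, n = 10) in LF_HF, 9.03% ± 3.34 (SD, n = 10) in HF_LF and 6.47% ± 3.20 (SD, n = 10) in HF_HF, and these ranges of 1 SD overlap. The 2 highest of these CpGs lie together, and their stretch of the coding exon is shown with measured CpGs in capitals (mm9, chr12:58643338-58643398, minus strand):
Foxa1 coding: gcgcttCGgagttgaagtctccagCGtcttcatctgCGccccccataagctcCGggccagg

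From left to right their means were 7.57%, 10.9%, 18.5% and 11.9% over 37 mice. The last of them lies in an MspI site.

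Foxa3 (minus strand, chr7:19598631-19608887) changed level several times. The 6 CpGs from 9 to 117 bp past its start had a mean of 2.56% (1.02% to 5.83%). The 7 CpGs of the first intron from 466 to 628 bp had a mean of 18.4% (5.99% to 28.4%), and 5 CpGs from 2257 to 2355 bp had 7.27% (3.27% to 11.6%). The intron stretch was higher than the first one in 39 of 39 mice and higher than the later stretch in 40 of 40. The next 3 CpGs, 5625 to 5723 bp into the gene, stood at 35.4% to 43.0%, and that at 19600393 in the coding exon at 68.5%. The intron stretch is shown because its CpGs differ over short distances (mm9, chr7:19608253-19608427, minus strand, measured CpGs in capitals):
Foxa3 intron: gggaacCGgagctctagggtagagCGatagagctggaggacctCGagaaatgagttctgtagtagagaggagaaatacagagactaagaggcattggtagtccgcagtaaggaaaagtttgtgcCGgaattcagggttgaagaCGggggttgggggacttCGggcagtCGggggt

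From left to right the means were 21.8%, 14.2%, 5.99%, 25.6%, 14.3%, 28.4% and 18.4%, over 37 to 40 mice. Both CpGs in MspI sites, the first and the fourth, were among the 3 highest. All 7 cytosines were on the minus strand. Because of this stretch the longest run of Foxa3 is an intronic one, from 628 to 2355 bp inside the gene. With a limit of 10% in place of 20%, the longest run was that at the start, which spanned 1350 bp. Downstream of the gene, a pair of CpGs at 19597733 and 19597769 was low again (5.96% and 1.38%) and those at 19595132 to 19595148 ranged from 54.3% to 83.1%. Upstream, the CpG at 19610119 (3.45%) lies within the neighbouring gene Sympk.

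Cebpa and Cebpb encode C/EBP proteins that act on metabolic genes, and both are short genes without introns. Cebpb (plus strand, chr2:167514415-167515918) had the lowest mean within its run, 1.16%. Its 32 run CpGs outside MspI sites had a mean of 0.415% and none was above 1.77%. A stretch of its coding exon is shown as an example of sequence with almost no methylation (mm9, chr2:167514985-167515086, plus strand, measured CpGs in capitals):
Cebpb coding: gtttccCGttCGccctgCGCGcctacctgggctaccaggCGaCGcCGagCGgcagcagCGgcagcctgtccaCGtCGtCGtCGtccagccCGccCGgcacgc

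The methylation of these CpGs ranged from 0% to 1.01%, apart from 5.76% at the last one, which lies in an MspI site. Upstream, the CpGs at 167512502 and 167512467 had 30.9% and 25.4%, the first of them 1551 bp from the last low CpG and higher than it in 32 of 34 mice. The gene Tmem189, on the other strand, covers this stretch and most of Cebpb.

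Cebpa (plus strand, chr7:35904312-35906945) was unmethylated from 700 bp upstream to 1466 bp downstream of its start. Outside MspI sites its 34 run CpGs had a mean of 0.468%. The upstream edge was graded. The CpG at 35903612 had 2.80%, that at 35901987 23.3%, and the next stretch, from 35900945 to 35901035, reached 54.1%. The distance from the last low CpG to the first at 50% or more was 2577 bp, and the latter was higher in 36 of 36 mice. The sequence of that stretch is shown as an edge at intermediate level (mm9, chr7:35900940-35901040, plus strand, measured CpGs in capitals):
Cebpa upstream: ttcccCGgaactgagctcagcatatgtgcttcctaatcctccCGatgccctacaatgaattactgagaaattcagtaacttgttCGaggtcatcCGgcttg

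From left to right its means were 54.1%, 21.8%, 34.5% and 52.5%, with SDs of 16.0, 13.8, 11.1 and 13.0 percentage points. The 2 CpGs in MspI sites, the first and the last, were the higher ones. The first pair was read on the plus strand and the second on the minus strand.

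Onecut1, also called Hnf6 (plus strand, chr9:74709728-74737591), was low from 414 bp upstream of its start to 6823 bp downstream of it, within an intron. Upstream, the next CpG at 74704789 had 38.8%, 4525 bp away. In the intron, levels changed within one MspI fragment, shown here with measured CpGs in capitals (mm9, chr9:74716511-74716639, plus strand):
Onecut1 intron edge: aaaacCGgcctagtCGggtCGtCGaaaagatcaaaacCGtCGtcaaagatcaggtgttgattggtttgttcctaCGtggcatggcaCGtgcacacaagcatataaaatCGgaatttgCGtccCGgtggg

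The first 6 CpGs had means of 6.48%, 8.84%, 1.52%, 12.04%, 11.4% and 5.26%, and the last 5 had 26.3%, 25.4%, 22.8%, 22.2% and 21.8%. The step between the 2 sets spanned 35 bp. The mean of the last 5 was higher than that of the first 6 in 34 of 35 mice. The first 6 cytosines were on the plus strand and the last 5 on the minus strand, so the step joins reads from opposite ends of the fragment. Where both cytosines of one CpG were tested, they differed by a median of 0.602 percentage points over 9667 CpGs (95th percentile 4.17, largest 71.9). The largest difference at the 11 such CpGs of the 8 genes was 1.63. No CpG of this edge had both cytosines tested. Most tested CpGs were below 20%, where the cytosines of one CpG can differ little. A part of the strand in this step was not tested. Among neighbours 20 to 50 bp apart with at least one below 20%, 1.81% of 4705 pairs on opposite strands and 2.50% of 16625 pairs on the same strand differed by 20 percentage points or more.

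Prox1 (minus strand, chr1:191945660-191994559), a homeobox gene needed for liver outgrowth, was low from 4770 bp upstream to 1025 bp inside its start, in DNA that the long non-coding gene Gm17566 partly shares. Its body was methylated. The CpG at 191986187, in an exon annotated as untranslated, had 54.5%, its neighbour at 191986160 31.9%, and the intronic CpGs from 191961415 to 191974050 54.5% to 96.4%. The edge from 191993534 (6.66%) to 191986187 spanned 7347 bp with no tested CpG between, and the second was higher in 37 of 37 mice. Their ranges over mice, 0% to 27.8% and 33.3% to 71.4%, did not overlap.

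The unmethylated CpGs of the 7 genes that had any shared a higher mean in MspI sites, by the least at Foxa3 (6.73% against 6.21%) and by the most at Cebpb (5.94% against 0.415%). Among member CpGs below 20%, the 64 within CCGG had a mean of 6.17% and the 183 others 1.88%. Of the 64, 56 were at 4% or more, against 27 of the 183. The MspI mean was the higher one in 40 of 40 mice, where it ranged from 4.76% to 8.25% and the other mean from 1.38% to 3.14%. The same was seen over all CpGs below 20%, with 6.60% (36541 CpGs) against 1.58% (113241). At CpGs of 80% or more the means were 91.1% (40597) and 91.8% (32020). The source of this offset was not tested, and levels of a few percent at MspI sites are read here with it in view.

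**Figure D3:**
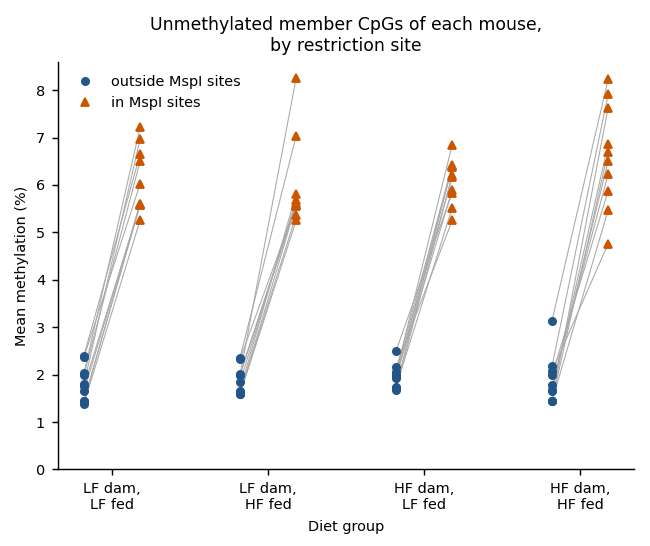
Mean methylation (%) of the member CpGs below 20% in each mouse, outside MspI sites (circles) and in them (triangles), with grey lines joining the 2 values of a mouse, by diet group. The MspI values (4.76% to 8.25%) lie above the others (1.38% to 3.14%) in 40 of 40 mice.

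The diet comparisons asked whether any of these levels differed with maternal diet on one post-weaning diet, or with post-weaning diet under one maternal diet. No member CpG passed an FDR of 5% in any of the 4 comparisons or for the interaction of the diets. For HF_HF against LF_HF, 7 of 263 members had an unadjusted p under 0.05 (2 higher and 5 lower in HF_HF), beside 3.72% of all CpGs, and 0 passed the FDR, beside 0% of all. For HF_LF against LF_LF, the counts were 9 of 266 (6 higher and 3 lower in HF_LF) beside 3.99%, and 0 beside 0%. For LF_HF against LF_LF they were 9 of 255 (5 higher and 4 lower in LF_HF) beside 4.03%, and 0 beside 0.00084%. For HF_HF against HF_LF they were 10 of 267 (2 higher and 8 lower in HF_HF) beside 4.06%, and 0 beside 0.00124%. For the interaction they were 10 of 279 beside 4.18%, and 0 beside 0%. In this test each share of members was below the share over all CpGs. For HF_HF against HF_LF this turned without the mouse of lowest depth in each group (14 of 267, 5.24%, beside 4.08%) and with all CpGs as deposited (15 of 362, 4.14%, beside 3.97%), and for LF_HF against LF_LF with all CpGs as deposited (14 of 351, 3.99%, beside 3.88%). With only CpGs covered in all 40 mice, which left 34 to 38 members, it turned in 3 of the 4 comparisons, HF_LF against LF_LF among them (3 of 38, 7.89%, beside 4.74%). A Wilcoxon rank-sum test at an unadjusted p under 0.05 called 8 members (3.04%) beside 3.44% of all CpGs and 8 (3.01%) beside 3.66% for maternal diet, in the same order, and 12 (4.71%) beside 3.71% and 12 (4.49%) beside 3.73% for post-weaning diet. With it the share of members was thus above that over all CpGs in both post-weaning comparisons, and 0 members passed an FDR of 5%. The smallest Benjamini-Hochberg adjusted p of a member was 0.808 over the 4 comparisons and 0.868 for the interaction.

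Other liver transcription factors were taken from a list of 22 genes. Of these (among them Nr1h4, Rxra, Ppara, Gata4, Onecut2 and Xbp1), 11 had tested promoter CpGs, 8 of these with a promoter mean below 20% and a median over genes of 3.57%. Their CpGs had an unadjusted p under 0.05 at 19 of 451 (4.21%, beside 3.72% of all CpGs), 27 of 453 (5.96%, beside 3.99%), 17 of 444 (3.83%, beside 4.03%) and 21 of 453 (4.64%, beside 4.06%) in the order of comparisons above, so 3 of the 4 shares lay above that of all CpGs, and 0 passed the FDR in each. Promoters of Ppara and Xbp1 had means of 3.57% and 1.21%. Those above 20% were Creb3l3 with 73.4% at its 1 CpG, Tbx3 with 31.7% and Gata4 with 25.6%. The CpGs of Tbx3 ranged from 0.0733% to 77.2% (31 CpGs) and those of Gata4 from 0.449% to 81.5% (9 CpGs). Without the break at gaps, 11 of the 22 genes had an unmethylated run, with a median of 6256 bp, against 5796 bp over the 7 members that had a run. Their runs with the break at gaps are not given here.

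To use several CpGs of a gene together, they were averaged in zones of mean methylation, wherever they lay in the gene's window. Zones were low (below 20%), middle (20% to below 50%) and high (50% or more), with at least 3 CpGs each. The mean level of each CpG was first removed so that missing CpGs do not shift a mouse. The members gave 13 such zones. The low zones had means of 1.16% at Cebpb, 1.55% at Cebpa, 2.64% at Prox1, 3.30% at Foxa2, 3.43% at Onecut1, 3.73% at Foxa1 and 6.41% at Foxa3. The SDs over the 40 mice were from 0.428 percentage points at Cebpa to 1.95 at Foxa3. Middle zones stood at 26.2% (Onecut1), 26.4% (Hnf4a), 26.5% (Cebpa) and 32.3% (Foxa3), and high zones at 67.3% (Foxa3) and 76.3% (Prox1).

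**Figure D4:**
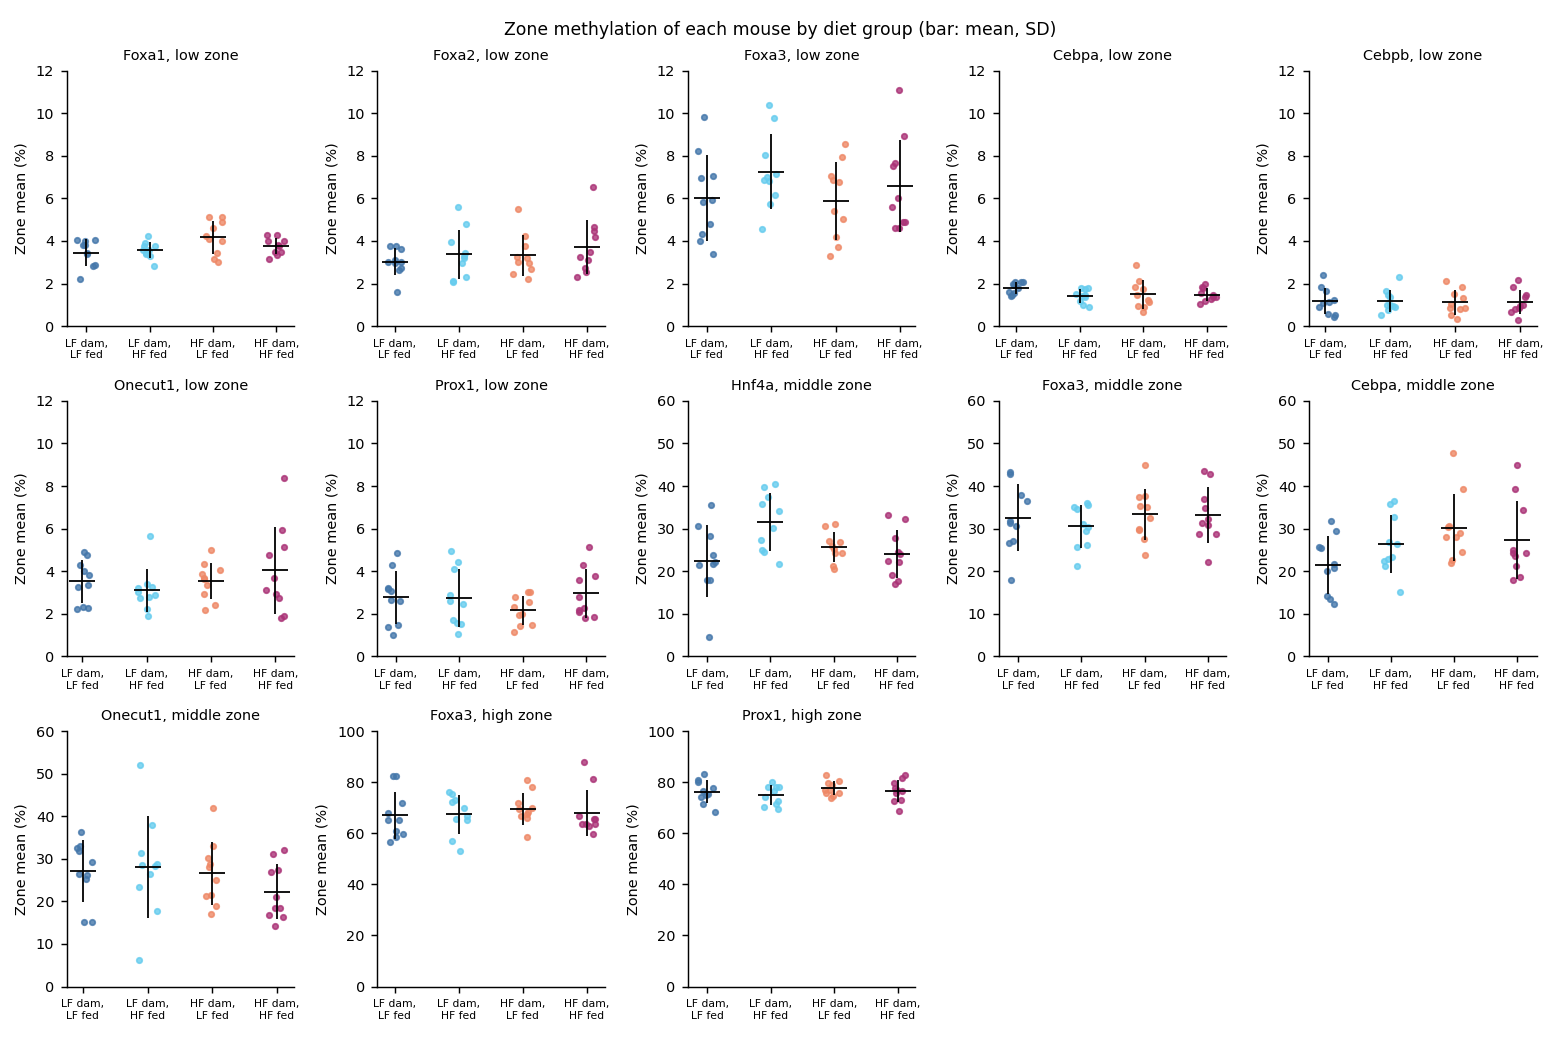
Zone methylation (%) of each mouse (points) by diet group, with the group mean and SD as bars, for the 13 zones of the members. Low zones run from 0 to 12%, middle zones from 0 to 60% and high zones from 0 to 100% on their axes, and the 4 groups overlap in every panel.

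No zone of a member passed an FDR of 5%. At an unadjusted p under 0.05 there was 1 of 13 for HF_HF against LF_HF (4.84% of all gene zones), 2 of 13 for HF_LF against LF_LF (5.53%), 2 of 13 for LF_HF against LF_LF (5.61%), 0 of 13 for HF_HF against HF_LF (6.38%) and 1 of 13 for the interaction (5.54%). Over all gene zones, 0, 0, 0 and 1 passed an FDR of 5% in the 4 comparisons.

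The middle zone of Hnf4a accounted for 3 of these calls. This zone joins 7 CpGs from separate stretches of the gene and is not a single region. Its level ranged from 4.64% to 35.5% (median 21.9%) in LF_LF, from 21.6% to 40.5% (median 32.1%) in LF_HF, from 20.4% to 31.0% (median 25.5%) in HF_LF and from 17.0% to 33.2% (median 23.2%) in HF_HF. Levels were highest in LF_HF, and all 4 groups overlapped. The means were 22.4% ± 8.40, 31.6% ± 6.85, 25.7% ± 3.47 and 24.0% ± 5.64 in that order (SD, n = 10 each). LF_HF was 9.18 percentage points above LF_LF (95% interval 1.98 to 16.4), with a permutation p of 0.0144 and an adjusted p of 0.785. HF_HF differed from LF_HF by -7.61 percentage points (interval -13.5 to -1.71, permutation p 0.0154, adjusted p 0.973). Both comparisons share the LF_HF animals. The interaction was -10.9 percentage points (unadjusted p 0.0104, adjusted p 0.823), and without the mouse of lowest depth in each group it was -8.71 (unadjusted p 0.0507). The LF_LF mouse at 4.64% had values at 2 of the 7 CpGs, and without it the interaction was -8.88 (unadjusted p 0.0186).

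Among single CpGs of Hnf4a, that at 163391302 had the smallest p of all members for HF_HF against LF_HF. It ranged from 75% to 86.7% (median 83.3%) over 9 HF_HF mice and from 81.8% to 96.6% (median 89.5%) over 9 LF_HF mice. The groups overlapped, and their means were 82.0% and 89.7% (exact permutation p 0.00457, adjusted p 0.822). On the other post-weaning diet, the means at this CpG were 84.0% in HF_LF and 89.8% in LF_LF. Its neighbour 163391349 had 63.3% in HF_HF, 72.7% in LF_HF, 65.7% in HF_LF and 72.1% in LF_LF. At both CpGs and on both post-weaning diets the lower mean was that of the animals born from HF fed dams. The first CpG was picked by its p for HF_HF against LF_HF, so a difference there was given by that choice. Its neighbour lies close by and was measured in the same mice, so it is not separate support. The CpG at 163373452, the last of the intron sequence above, had the most negative difference of the members for HF_HF against LF_HF, with 20.1% and 36.3% (exact permutation p 0.0360), and the most positive one for LF_HF against LF_LF, with 36.3% and 21.3% (exact permutation p 0.0282). Without the mouse of lowest depth in each group, the differences at this CpG were -13.8 and 9.98 percentage points (unadjusted p 0.0628 and 0.103), against -16.2 and 15.0 with all mice.

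**Figure D5:**
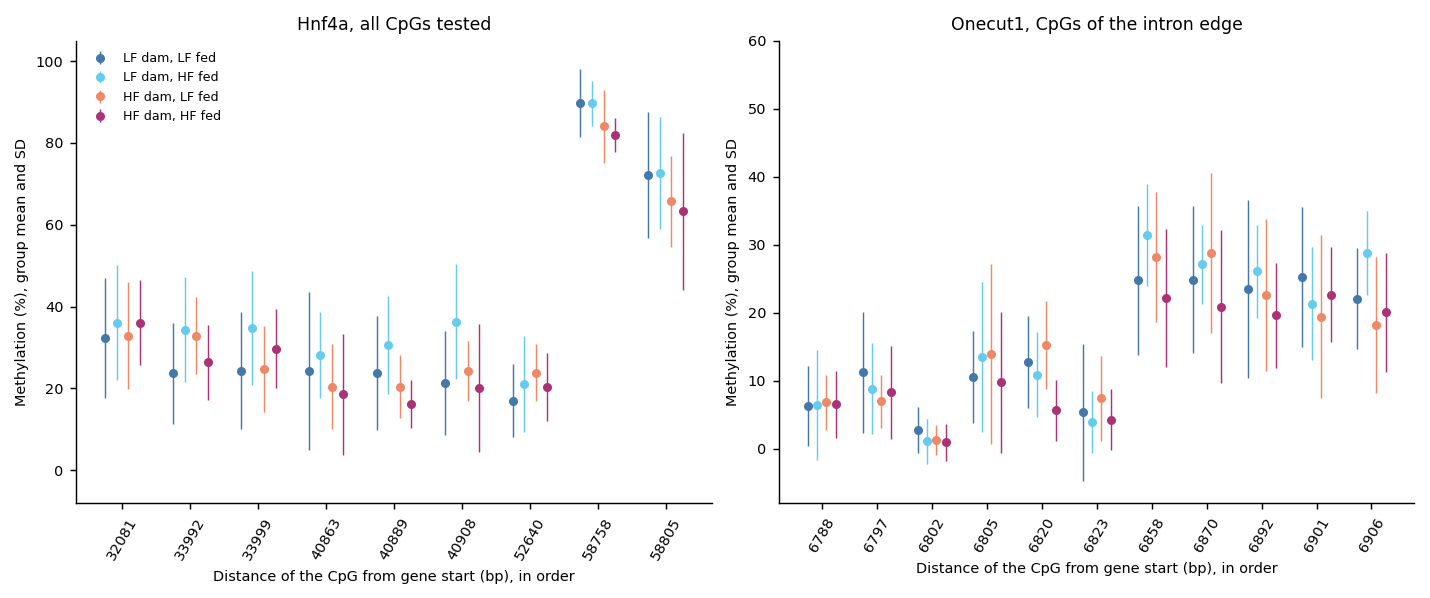
Methylation (%, group mean with SD) in the 4 diet groups at each of the 9 CpGs of Hnf4a (left) and at the 11 CpGs of the Onecut1 intron edge (right), in order of distance in bp from the gene start. The last 2 Hnf4a CpGs stand above the other 7 in each group, and the last 5 Onecut1 CpGs, all at group means of 18.2% or more, stand above the first 6.

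The unmethylated runs were bounded by 36 CpGs in all, inside and outside the 5 kb windows: the last low CpG on each side, the next one, and the first with a mean of 50% or more, themselves chosen by their means over all mice. Of those with enough values, 2 of 36 had an unadjusted p under 0.05 for HF_HF against LF_HF (3.72% of all CpGs), 2 of 35 for HF_LF against LF_LF (3.99%), 3 of 36 for LF_HF against LF_LF (4.03%), 4 of 35 for HF_HF against HF_LF (4.06%) and 2 of 36 for the interaction (4.18%), and none passed the FDR. At the downstream edge of Prox1 the inner CpG had means of 6.15% in LF_LF, 8.78% in LF_HF, 5.91% in HF_LF and 5.71% in HF_HF. The outer CpG, at 191986187, had 51.3%, 52.4%, 62.1% and 52.1% in that order. Its mean was 10.8 percentage points higher in HF_LF than in LF_LF (permutation p 0.00410, Benjamini-Hochberg adjusted p 0.818), HF_HF differed from HF_LF by -10.0 (permutation p 0.0140, adjusted p 0.820), and the interaction was -11.0 (unadjusted p 0.0442, adjusted p 0.868). The CpG of this last kind upstream of Onecut1, at 74702546 and outside its window, had 63.1% in LF_LF, 53.6% in LF_HF, 61.1% in HF_LF and 47.4% in HF_HF. Its mean was lower on HF after weaning under both maternal diets (permutation p 0.0454 for LF fed dams and 0.0213 for HF fed dams, adjusted p 0.808 and 0.820). These CpGs were singled out after their values were seen. At the Onecut1 intron edge, the last 5 CpGs had group means of 21.1% to 26.9% and the first 6 of 6.01% to 8.59%. The smallest p among members for HF_HF against HF_LF was at this edge, at 74716548. It ranged from 0% to 11.8% (median 5.72%) over 8 HF_HF mice and from 6.67% to 25% (median 15.9%) over 10 HF_LF mice, and the groups overlapped. The means were 5.62% and 15.3% (exact permutation p 0.00302, adjusted p 0.820), and 7 of the 10 CpGs within 100 bp had a difference of the same sign. These neighbours lie on the same fragment and were measured in the same mice, so they are not separate support.

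The upstream stretch of Cebpa, a gene whose product restrains the growth of hepatocytes, gave several of the larger differences. Its CpG at 35901035 ranged from 30% to 68.8% (median 47.0%) in HF_HF and from 35.7% to 85% (median 61.8%) in HF_LF. The groups overlapped, and this was the most negative difference of that comparison, with means of 47.8% and 62.2% (permutation p 0.0185, adjusted p 0.820). Its CpG at 35901025 had the most positive difference for HF_LF against LF_LF, with 42.5% ± 8.79 (SD, n = 10) and 31.4% ± 10.7 (SD, n = 10), a permutation p of 0.0190 and an adjusted p of 0.818. Its CpG at 35900982 had that for HF_HF against LF_HF, with 27.2% and 19.0% (exact permutation p 0.133). The middle zone of Cebpa, which holds 35900982, 35901025 and 35901987, was 30.2% ± 7.89 (SD, n = 10) in HF_LF and 21.5% ± 6.73 (SD, n = 10) in LF_LF, a difference of 8.69 percentage points (95% interval 1.80 to 15.6, permutation p 0.0137, adjusted p 0.858). On HF after weaning, the means of this zone were 27.4% in HF_HF and 26.3% in LF_HF, a difference of 1.06 (permutation p 0.777). Within the unmethylated run, the CpG at 35903972 had the smallest p for LF_HF against LF_LF, with 3.21% and 7.78% (permutation p 0.00698, adjusted p 0.808). It lies in an MspI site. None of the 4 tested cytosines within 100 bp, its partner on the opposite strand among them, differed in that direction.

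At Foxa3, the CpG at 19610119 had the smallest p for HF_LF against LF_LF, with 0.505% and 5.56% (permutation p 0.00460, adjusted p 0.818), while HF_HF and LF_HF had 3.67% and 4.15%. It also lies in an MspI site. The CpG at 19608303 in the Foxa3 intron had the most negative difference for LF_HF against LF_LF, with 20.7% and 29.3% (exact permutation p 0.132). The Prox1 CpG at 191973605 had 50.3% in HF_LF, against 57.8% in LF_LF (permutation p 0.187) and 59.2% in HF_HF (exact permutation p 0.104).

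In the low zones the differences were small in size. That of Foxa1 was 4.17% ± 0.779 (SD, n = 10) in HF_LF and 3.45% ± 0.628 (SD, n = 10) in LF_LF (difference 0.724, permutation p 0.0355, adjusted p 0.881). Its unadjusted p was 0.0978 from pooled reads, 0.0861 without the mouse of lowest depth in each group and 0.127 with the zone limit at 10%. That of Cebpa was 1.42% ± 0.315 (SD, n = 10) in LF_HF and 1.79% ± 0.266 (SD, n = 10) in LF_LF (difference -0.367, permutation p 0.0125, adjusted p 0.803). Over the 7 genes and 4 comparisons, the 95% intervals of the low zone differences lay between -2.53 and 3.002 percentage points.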

How the data were processed

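RRBS libraries of 40 mouse livers were made by the authors, who aligned the bisulfite reads to mm9 with Bismark and deposited, for each CpG and mouse, a count of methylated and a count of all reads. The authors had already left out values of under 10 reads, and 0 deposited columns lacked a mapped sample. Percent methylation was the ratio of these deposited counts; the deposited fractions, which hold the same ratio, were not used. CpGs with values in at least 36 mice were tested by a two-sided Student's t-test, with Benjamini-Hochberg adjustment over all CpGs. A comparison needed at least 5 values per group. The study's methods name Student's t-test, a Wilcoxon rank test and correction by FDR. The study reports 400298 CpGs after its own coverage rule, whereas 262317 met the limit of 36 mice here. The interaction came from a linear model with both diets. Named differences between a pair of groups, but not interactions or alternatives, were also tested by two-sided permutation (exact, or 100000 resamples where both groups had 10 values). Gene windows followed the GENCODE annotation of NCBIM37 (mm9), and promoter windows came from RefSeq (GRCm38.p6). The CpGs named are the first and last of each run, those that bound it, and per comparison the member with the smallest p, the most positive and the most negative difference. The members and gene lists were chosen with earlier results of these data known. The stretches described within genes, the middle zones and the sequences were chosen after their values were seen. Coverage differed between mice, and a value from 10 reads has a wide counting error. Python 3.11.15, numpy 2.4.6, pandas 2.3.3, scipy 1.17.1 and matplotlib 3.10.9 were used, and the tests were tested on simulated data. Some members of the list of other liver factors are not reported here by name.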

Additional observations from a re-analysis of the deposited data

Results flagged for a closer look

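In the group LF_LF, 1 mouse (replicate 1) had a mean of 1.61% in the low zone of Foxa2, set apart below the other 9, the nearest of which had 2.66%. It was the mouse of lowest depth in its group, with 4272932 reads and 33.8% of the listed CpGs missing. In the group LF_HF, 1 mouse (replicate 9) had 5.67% in the low zone of Onecut1, set apart above the others, the nearest of which had 3.40%. In each case the gap to the nearest mouse passed Dixon's 95% limit for 10 values, which chance alone passes in about 1 of 20 groups. The 2 mice came from 52 combinations of zone and group that were tested. In the middle zone of Hnf4a, the interaction of the diets in the linear model was -10.9 percentage points (unadjusted p 0.0104). This interaction did not pass the FDR (adjusted p 0.823 over all gene zones). Without the mouse of lowest depth in each group it was -8.71 percentage points (unadjusted p 0.0507).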

How the results depend on the processing

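No member CpG passed an FDR of 5% under any alternative that gave a value, and with a minimum of 20 reads no member CpG was left to test. At an unadjusted p under 0.05, using all CpGs as deposited gave 11 members of 357 (3.08%, beside 3.63% of all CpGs; HF_HF against LF_HF) and 14 of 351 (3.99%, beside 3.88%; LF_HF against LF_LF). With only CpGs covered in all 40 mice the counts were 1 of 37 (2.7%, beside 3.94%), 3 of 38 (7.89%, beside 4.74%), 2 of 34 (5.88%, beside 5.1%) and 2 of 36 (5.56%, beside 4.2%). Member zones called for HF_LF against LF_LF were 1 of 13 from pooled reads (beside 5.45% of all gene zones), 1 of 11 with a flank of 2 kb (5.43%), 1 of 14 with zone limits of 10% and 80% (5.41%) and 1 of 13 without the mouse of lowest depth in each group (5.54%). Those limits gave 2 of 14 (14.3%, beside 4.87%) for HF_HF against LF_HF, and leaving out the lowest mouse of each group gave 0 of 13 (beside 5.82%) for the interaction. Leaving out each mouse in turn, an alternative added after the data were seen, kept the Hnf4a interaction between -12.3 and -8.88 (unadjusted p 0.00292 to 0.0188). The runs moved with their definition. With a limit of 10% they spanned 3616 bp at Foxa1, 10612 at Foxa2, 1350 at Foxa3 and 7217 at Onecut1. With 30% they spanned 11658, 19323, 3588 and 7321 bp at these genes and 3792 at Cebpa, and Hnf4a gained a run of 18649 bp over 6 CpGs. All CpGs as deposited gave 10771 bp at Foxa2, 1742 at Cebpb and 10427 at Cebpa. Tolerating 1 CpG of 20% or more gave 11658 bp at Foxa1 and 55199 at Foxa3. The next 2 were added after the data were seen. Breaking runs at gaps gave 1115 bp at Prox1, 3662 at Foxa1, 4402 at Foxa2 and 1619 at Onecut1. Leaving out MspI sites gave 5745 bp at Prox1, 10622 at Foxa2, 1607 at Cebpb, 53423 at Foxa3, 2138 at Cebpa and 7183 at Onecut1. The cause of these shifts was not tested, apart from the fewer CpGs or mice used. No paired analysis was possible because the replicate numbers only name the mice. Depth limits single CpGs, and edges are known only to the nearest read stretch.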
